A study of Rattus norvegicus with 11 samples.

Results

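The collagen genes were taken as the rows of the deposited table whose symbol is Col, a type number, the letter a and a chain number. This rule found 44 of 18507 genes. They were divided into 9 fibrillar genes (types I, II, III, V and XI), 8 basement membrane genes (types IV, XV and XVIII), 6 genes of type VI, 3 network genes (types VIII and X) and 18 others. Bladder tissues came from female Sprague-Dawley rats, about 6 months old in the methods, in which partial bladder outlet obstruction (PBOO) was made by tying a suture around the bladder neck and urethra over a tube that was then drawn out. The control rats, labelled normal, had an abdominal incision alone by the study's methods. There were 3 normal and 3 PBOO samples at week 4, and 3 normal and 2 PBOO samples at week 5. The normal samples of week 5 are in columns named as adult samples, and the PBOO samples of that week in columns named DO. All columns of week 4 carry the word Input in their names. Nothing in the labels says how many rats gave each sample. The study's discussion calls the replicates biological and says that a sample was left out at quality control, which leaves 2 PBOO samples at week 5. The p-values measure the spread between the replicates.

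Collagens are secreted proteins whose chains wind into a triple helix, either of like chains or of different ones. Fibrillar collagens are packed into the fibrils that carry tension, type IV forms the sheet of the basement membrane, and type VI forms beaded filaments around cells. In the bladder wall, collagen lies in the lamina propria, around the bundles of smooth muscle and under the urothelium, and its amount and type bear on how the wall stretches. The comparison asks how the RNA of each chain differed between obstructed and normal bladders at each week.

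Levels are given as FPKM, read fragments scaled by transcript length and by the mapped total, as the authors computed them. Their sums per sample lay between 424961 and 564343, and the depth is unknown. Within a week, genes whose samples averaged 0.5 FPKM or more were compared with limma on log2(FPKM + 0.1), and fold changes are on that scale, so changes of low genes come out too small. A gene is said to have risen or fallen where its unadjusted p was under 0.05 and its change at least 2-fold, and the Benjamini-Hochberg adjusted p over all genes tested is given beside it. Of the uroplakins that define the urothelium, Upk1a, Upk1b, Upk2 and Upk3a were present in every sample, Upk3a at 766 FPKM or more. Some summed marker levels differed between the groups, and others overlapped. At week 4, the fibroblast, leukocyte, endothelial and red blood cell sums overlapped. The summed level of 8 smooth muscle markers was 25457 to 27534 FPKM in normal and 50985 to 82287 FPKM in PBOO samples of week 4, and 24744 to 28980.0 FPKM against 992 to 1852 FPKM at week 5. At week 4, 4 of these 8 rose, Actg2 furthest (log2 fold change 2.27, limma adjusted p = 0.0483). Tagln, Acta2 and Myh11 did not reach 2-fold, and Smtn was level (log2 fold change 0.02, limma adjusted p = 0.939). For 8 fibroblast markers the sum was 680.4 to 2589 FPKM against 2080.3 to 2342 FPKM at week 4 and 431 to 599.8 FPKM against 230.0 to 280.4 FPKM at week 5. Most of the PBOO sums of week 5 came from Pdpn alone, at 187.0 and 185.6 FPKM. The 8 leukocyte markers summed to 15.6 to 37.4 FPKM in normal and 169.5 to 584 FPKM in PBOO samples of week 5. At week 4, the 10 urothelial markers summed to 5309 to 6545 FPKM in normal and 3094 to 3940.1 FPKM in PBOO samples. The 6 nerve and glia markers summed to 1022 to 1440.4 FPKM and 636 to 931 FPKM. Most of this was Uchl1, and Ncam1 went the other way (log2 fold change 0.58, limma adjusted p = 0.113). The 4 fat markers, all of which fell, summed to 889.6 to 1057 FPKM and 298 to 812 FPKM, most of it Fabp4. In normal replicates 1 and 3 of week 5, Fabp4 had 1001 and 1035 FPKM while Adipoq was listed at 0, so this sum mostly tells of Fabp4. At week 5, all 8 smooth muscle and 6 of the 8 fibroblast markers fell, the fibroblast marker Pdpn rose (log2 fold change 1.79, limma adjusted p = 0.00321) and 6 of 7 leukocyte markers tested rose. The 6 skeletal muscle markers summed to 177 to 292 FPKM in normal and 362 to 3060 FPKM in PBOO samples of week 4. Acta1 made up most of these PBOO sums. At week 5 the sums were 206 to 231 FPKM against 27.4 and 27.5 FPKM. Acta1 and Tnnt3 rose at week 4 and none fell, and at week 5, 3 of 4 tested fell and Mylpf rose. Of the 10 urothelial markers, Krt7 and Upk3b were listed at 0 in all samples of week 4. In such whole tissue, fewer cells of a type and less RNA per cell cannot be told apart, and the part of these markers in the collagen results was not tested.

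Of the 44 collagen genes, 17 were listed at 0 in all 6 samples of week 4, against 26.3% of all genes, and 2 (Col9a1 and Col26a1) in all 5 samples of week 5. The 17 were Col4a2, Col4a5, Col4a6, Col6a1, Col6a3, Col6a5, Col6a6, Col8a2, Col9a3, Col10a1, Col12a1, Col19a1, Col20a1, Col22a1, Col24a1, Col25a1 and Col28a1. No fibrillar gene was among them, while 4 of the 6 type VI genes were. In the normal samples of week 5, 12 of the 17 had a mean of at least 0.5 FPKM, and Col6a1 stood at 264, 262 and 279 FPKM. A 0 is therefore reported as the listed value, not as absence of RNA, and levels were not compared between the weeks. The filter left 19 collagen genes at week 4 and 30 at week 5, with 17 in both.

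**Figure D1:**
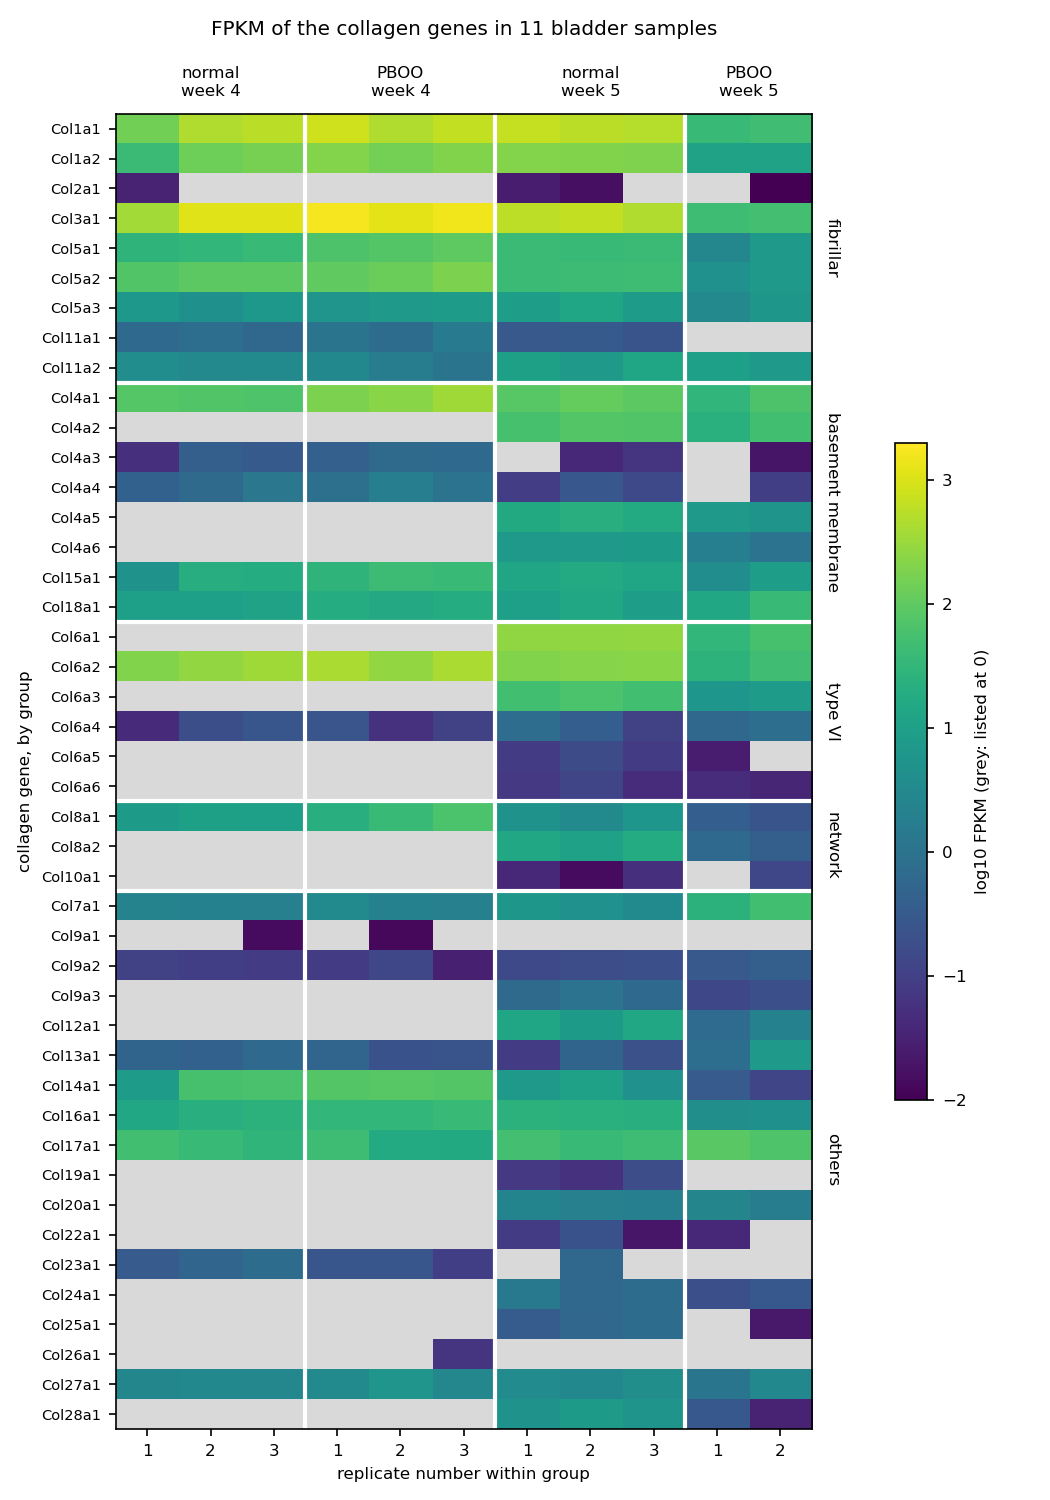
FPKM of the 44 collagen genes (rows, by collagen group) in the 11 bladder samples (columns, by group and replicate number), coloured by log10 FPKM, with values listed at 0 in grey. The 17 genes that are grey in all 6 columns of week 4 all carry colour in at least 1 column of week 5, and the brightest rows, Col1a1 and Col3a1, darken in both PBOO columns of week 5.

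At week 4, the collagen genes that rose in PBOO bladder tissues were Col4a1 of the basement membrane, Col5a1 of the fibrils, Col8a1 of the network group and Col15a1 of the basement membrane zone. These were 4 of the 19 tested, and none fell. Of all 11320 genes tested, 4.9% passed the same thresholds in either direction, of which 2.46% were higher and 2.45% lower in PBOO. After adjustment, Col4a1 and Col5a1 were under 0.05, against 0.512% of all genes, and both were over 0.05 on leaving out any 1 of 5 of the 6 samples. The median change on the log2 scale was 0.76 over the 19 collagen genes and -0.25 over all genes, and 17 of the 19 lay above 0. Every PBOO sample was above every normal sample in 9 of them, against 6.63% of all genes, and below in 1 (Col11a2), against 34.9%. Median-ratio scaling brought the median of all genes to -0.01 and that of the collagen genes to 1.01, and 7 collagen genes then rose, as with quantile normalization. The shares of all genes given here belong to the main fit, so counts from other settings are not to be set against them. Normal replicate 1 had lower values than the other normal samples for many collagen genes, as it had for the fibroblast markers (680.4 FPKM summed, against 2483 and 2589 FPKM) and the leukocyte markers (24.9 FPKM, against 174 and 182 FPKM). Without it, 3 collagen genes rose.

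The direction at week 5 was mostly the other way. In PBOO samples, 21 of the 30 collagen genes tested fell and 3 rose (Col7a1, Col13a1 and Col18a1). Of all 13685 genes tested, 12.6% fell and 9.82% rose. At a 4-fold change, which the study used for this week, 15 collagen genes fell and 2 rose, against 6.88% and 3.59% of all genes. With an adjusted p under 0.05 and no fold threshold, 17 were lower and 2 higher, against 14.5% and 15.5% of all genes (29.9% in either direction). The median log2 fold change of the 30 was -1.99, and that of all genes 0.12. Every PBOO sample was below every normal sample in 23 of the 30 and above in 4, where 25% and 35.3% of all genes did so. The PBOO arm of this week holds 2 samples.

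**Figure D2:**
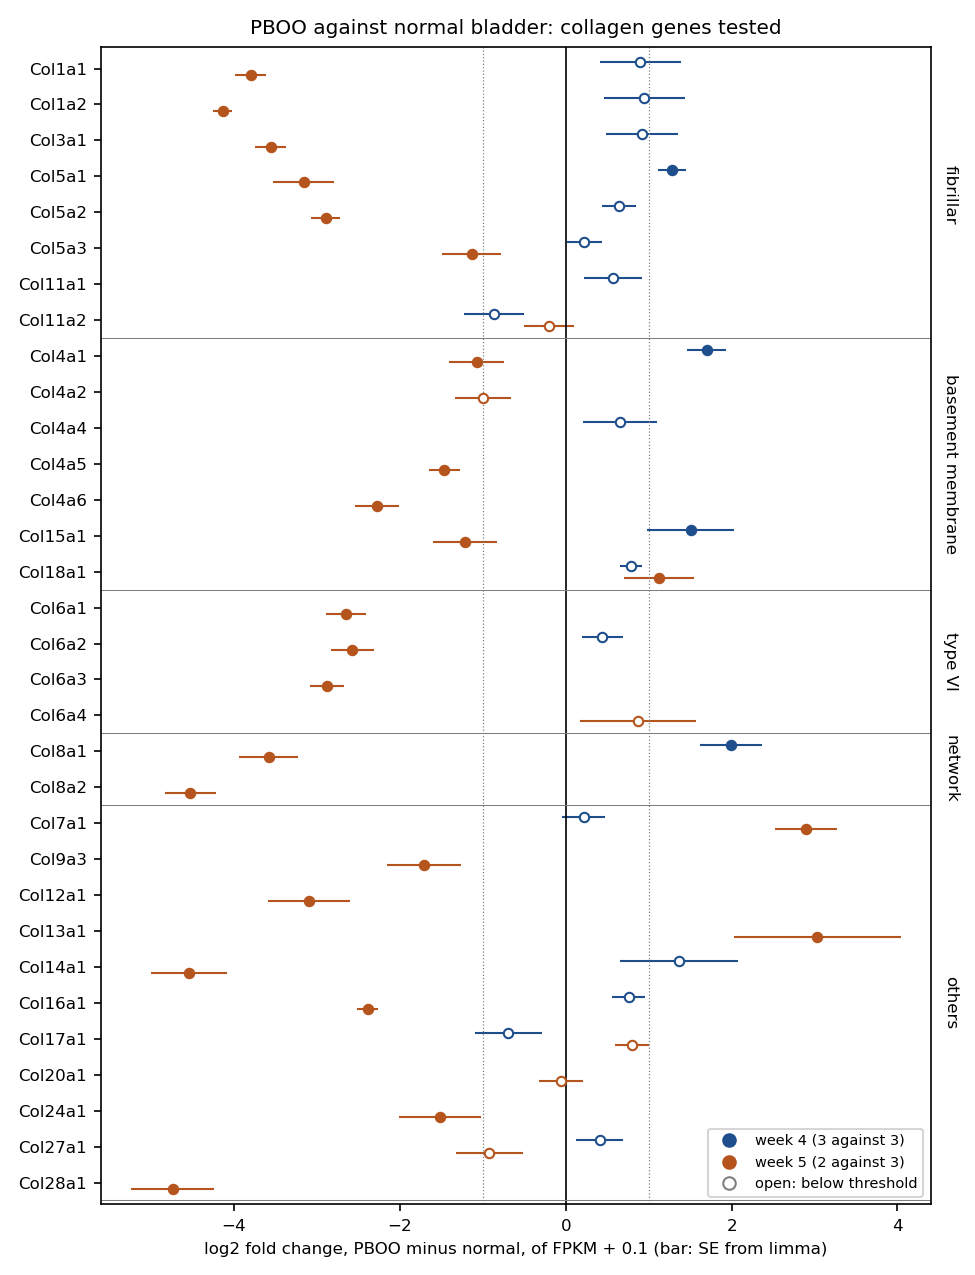
Log2 fold change (PBOO minus normal, of FPKM + 0.1) on the x axis for each collagen gene tested in at least 1 week, at week 4 (blue) and week 5 (orange), with the standard error from limma. Filled points passed both thresholds. The blue points lie mostly right of 0 and the orange ones mostly left of it, down to -4.74 for Col28a1 at this pseudocount, with Col7a1, Col13a1 and Col18a1 as the filled orange points on the right.

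The difference between the weeks was tested as an interaction in a fit over all 11 samples, which took in 20 collagen genes above 0 in both weeks. In 16 of the 20 the PBOO difference of week 5 departed from that of week 4 at an adjusted p under 0.05, lower at week 5 in 13 and higher in 3 (Col7a1, Col13a1 and Col17a1). Col14a1, at -5.91 (SE 0.99, limma adjusted p = 0.00146), and Col8a1, at -5.57 (SE 0.56, limma adjusted p = 6.75e-05), had differences that depend on the pseudocount, and with a pseudocount of 1 they were -4.07 and -4.04. Without normal replicate 1 of week 4, Col14a1 was at -4.96. Col1a2, at -5.08 (SE 0.62, limma adjusted p = 0.000239), was at -4.97 with a pseudocount of 1. Col5a3 was at -1.36 (SE 0.42, limma adjusted p = 0.0275), and the call of Col17a1, at 1.5 (SE 0.53, limma adjusted p = 0.0462), was lost on leaving out any of 9 of the 11 samples. Among the 11296 genes of that fit, 13.5% were called lower and 26.5% higher. Week is also the division along which genes are listed at 0, so weeks and the handling of the libraries cannot be told apart.

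Type I collagen, built from the chains of Col1a1 and Col1a2, and type III collagen, built from Col3a1, make up most of the fibrils of soft tissue, and Col3a1 and Col1a1 were the highest fibrillar genes here. At week 4, Col3a1 stood at 369.8, 1086 and 1164 FPKM in the normal samples and 1661, 1223 and 1553 FPKM in the PBOO samples. Every PBOO sample was above the normal ones, PBOO replicate 2 by little over normal replicates 2 and 3, and the change did not pass (log2 fold change 0.92, SE 0.43, limma adjusted p = 0.187). Col1a1 stood at 150.4, 459 and 557 FPKM in the normal samples and 811, 470.2 and 655 FPKM in the PBOO samples, and the groups overlapped (log2 fold change 0.90, SE 0.49, limma adjusted p = 0.231). For Col1a2 the values were 40.6, 138 and 162 FPKM in the normal samples and 210.0, 155 and 201 FPKM in the PBOO samples (log2 fold change 0.95, SE 0.49, limma adjusted p = 0.219). Normal replicate 1 was the lowest sample in all 3 genes. Without it the log2 fold changes were 0.38 for Col3a1, 0.32 for Col1a1 and 0.32 for Col1a2. Without normal replicate 3 they were 1.21, 1.26 and 1.32 and all passed, and without normal replicate 2 Col3a1 passed at 1.16.

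At week 5, all 3 genes fell in PBOO samples. Col1a1 stood at 683, 575 and 516 FPKM in the normal samples and 36.8 and 48.1 FPKM in the PBOO samples, a 13.9-fold lower level (log2 fold change -3.80, SE 0.19, limma adjusted p = 0.000288). Col3a1 was 11.8-fold lower, with 599.7, 658 and 476 FPKM in the normal samples and 44.4 and 52.9 FPKM in the PBOO samples (log2 fold change -3.56, SE 0.18, limma adjusted p = 0.000289). Col1a2 fell furthest, 17.6-fold, from 212, 198 and 184 FPKM to 11.3 and 11.1 FPKM (log2 fold change -4.13, SE 0.12, limma adjusted p = 0.000178). Both PBOO samples lay far below the 3 normal ones. The ratio of Col3a1 to Col1a1 within a sample does not depend on how the samples are scaled. It was 2.46, 2.37 and 2.09 in normal and 2.05, 2.60 and 2.37 in PBOO samples at week 4, and 0.878, 1.14 and 0.921 against 1.21 and 1.10 at week 5. The groups overlapped in both weeks (exact permutation test, two-sided, p = 0.9 and 0.4). The ratio of Col1a1 to Col1a2 was between 3.04 and 3.86 in all samples of week 4. At week 5 it was 3.22, 2.90 and 2.80 in normal and 3.26 and 4.35 in PBOO samples (exact permutation test, two-sided, p = 0.2). With 3 against 3 samples the smallest p of this test is 0.1, and with 2 against 3 it is 0.2, so no ratio could pass 0.05. Over the 7 ratios computed at week 4 and 12 at week 5, the smallest adjusted p was 0.7 and 0.48.

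**Figure D3:**
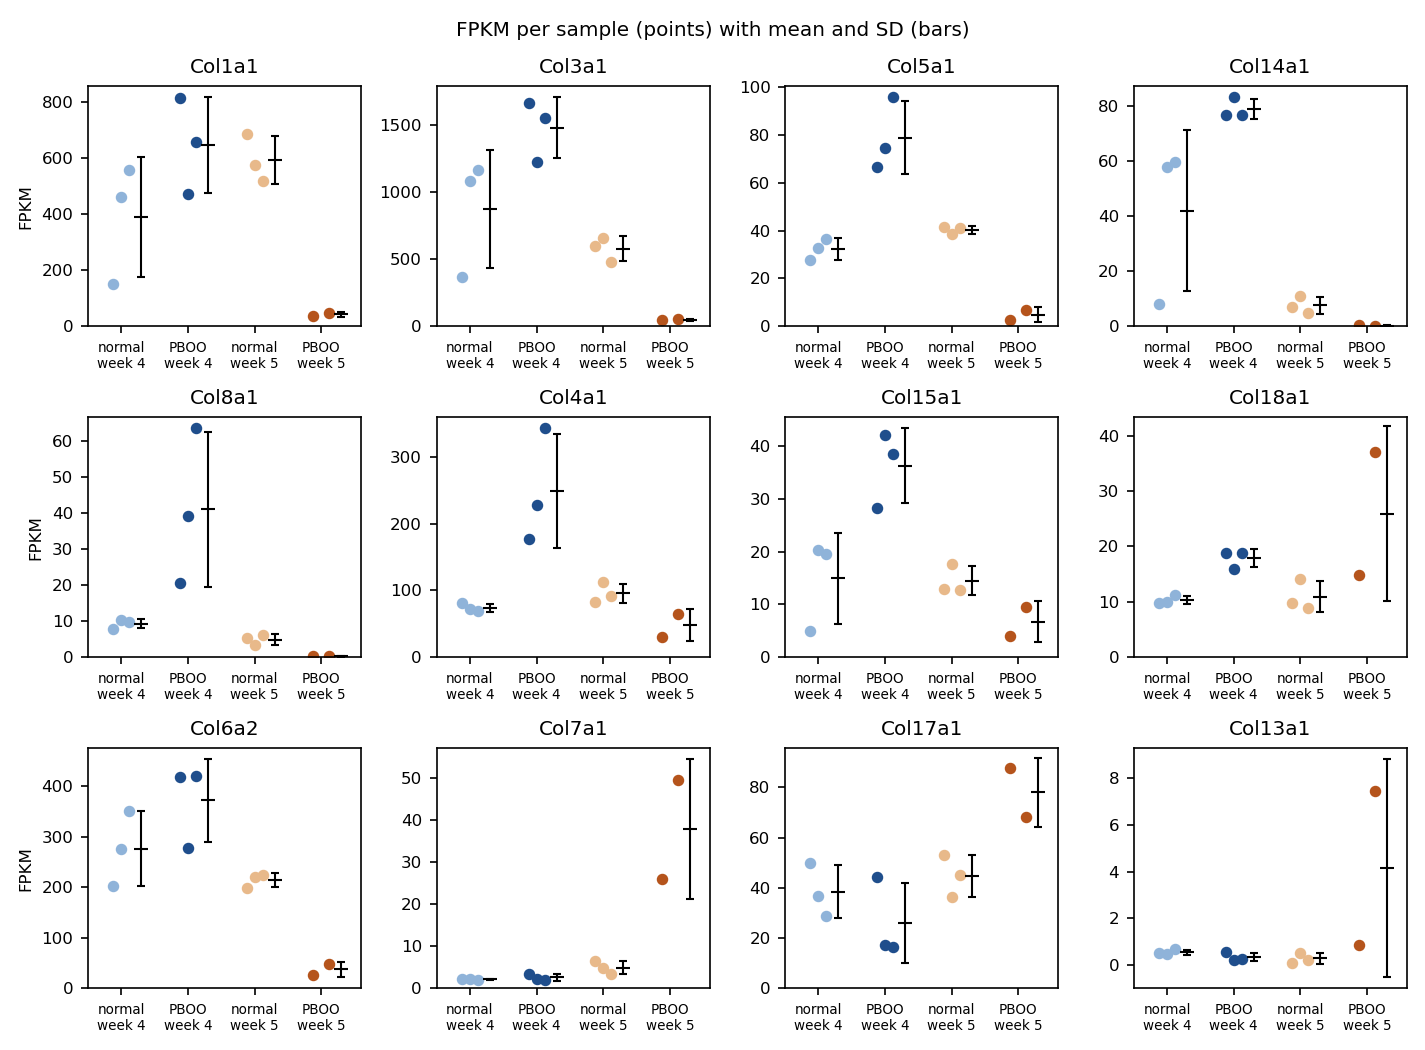
FPKM (y axis, with its own range in each panel, from 0 except for Col13a1) of 12 collagen genes in each sample (points, replicates from left to right) with the mean and SD of each group (bars beside them). Col1a1, Col3a1, Col5a1, Col14a1 and Col8a1 are near 0 in PBOO week 5 samples, Col4a1, Col5a1, Col8a1 and Col15a1 are above the normal samples in PBOO week 4, and Col7a1 and Col17a1 in PBOO week 5.

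Type V collagen is built into type I fibrils and helps to set their number and width. Col5a1, its main chain, rose at week 4, with 27.5, 32.7 and 36.6 FPKM in the normal samples and 66.4, 74.5 and 95.7 FPKM in the PBOO samples, and the groups were well apart (log2 fold change 1.28, SE 0.17, limma adjusted p = 0.0483). Col5a2 had 74.3, 90.8 and 92.8 FPKM in the normal samples and 102, 131 and 178 FPKM in the PBOO samples. Here too every PBOO sample was higher, with a change below 2-fold (log2 fold change 0.64, SE 0.21, limma adjusted p = 0.103). Within samples, the ratio of Col5a2 to Col5a1 was 2.70, 2.78 and 2.53 in normal and 1.53, 1.76 and 1.86 in PBOO samples, without overlap, and the exact permutation test (two-sided, n = 3 and 3) gave the smallest p it can, 0.1 (adjusted 0.7). Col5a3, a less common chain, had 6.67, 4.67 and 6.78 FPKM in the normal samples and 5.87, 7.09 and 8.18 FPKM in the PBOO samples, which overlapped (log2 fold change 0.23, SE 0.21, limma adjusted p = 0.458).

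At week 5, both main chains fell. Col5a1 had 41.7, 38.4 and 40.9 FPKM in the normal samples and 2.77 and 7.01 FPKM in the PBOO samples (log2 fold change -3.16, SE 0.37, limma adjusted p = 0.00315), and Col5a2 41.4, 43.9 and 45.3 FPKM against 4.84 and 6.88 FPKM (log2 fold change -2.89, SE 0.18, limma adjusted p = 0.000436). Without PBOO replicate 1 or 2, the log2 fold change of Col5a1 was -2.51 and -3.81. Col5a3 fell too, from 8.91, 12.9 and 8.43 FPKM to 3.09 and 6.40 FPKM (log2 fold change -1.13, SE 0.35, limma adjusted p = 0.0616), and its call was lost without PBOO replicate 1 (-0.62), without normal replicate 2 (-0.95) and with a pseudocount of 1 (-0.99). The ratio of Col5a2 to Col5a1 was 0.993, 1.14 and 1.11 in normal and 1.75 and 0.982 in PBOO samples of this week, which overlapped. Type XI, a relative of type V best known from cartilage, was low. Col11a2 had 3.91, 3.09 and 3.21 FPKM in the normal samples and 2.99, 1.80 and 1.09 FPKM in the PBOO samples at week 4, lower in every PBOO sample (log2 fold change -0.87, SE 0.36, limma adjusted p = 0.152). Without PBOO replicate 1 its log2 fold change was -1.21 and passed. At week 5 Col11a2 had 10.1, 7.15 and 13.5 FPKM in the normal samples and 10 and 7.34 FPKM in the PBOO samples, which overlapped (log2 fold change -0.20, SE 0.30, limma adjusted p = 0.634). Col11a1 had 0.652, 0.835 and 0.619 FPKM in the normal samples and 1.09, 0.758 and 1.53 FPKM in the PBOO samples at week 4 (log2 fold change 0.57, SE 0.35, limma adjusted p = 0.283). At week 5 it had 0.308, 0.323 and 0.235 FPKM in normal samples, was listed at 0 in both PBOO samples and did not pass the filter. Col2a1, the cartilage collagen, was at or below 0.0341 FPKM in every sample and was not tested.

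Type IV collagen forms the network of basement membranes, around smooth muscle cells, under the urothelium and around vessels, and its genes lie head to head in pairs. In the RefSeq promoter table (GRCr8), which held 35 of the 44 collagen genes, the annotated starts of Col4a1 and Col4a2 lay 76 bases apart and point away from each other, while those of Col4a3 and Col4a4 lay 412 and those of Col4a5 and Col4a6 1414 bases apart. The bases between Col4a1 and Col4a2 are shown because one of this pair has values at week 4 and the other is listed at 0. They are read on the strand of Col4a1, with each match to GGGCGG (on either strand) in capitals.
Col4a1 and Col4a2 (chr16:84885521-84885596, + strand): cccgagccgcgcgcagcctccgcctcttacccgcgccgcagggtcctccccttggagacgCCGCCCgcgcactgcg
This motif was found in the 250 bases before the start of 19 of the 35 collagen genes and of 32.4% of the 27457 genes in the table. CCAAT was found in 11 of the 35 and in 34.3% of all, and TATAAA in 4 and in 13.1%. Both strands were searched, and a match is a description of these letters only.

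Col4a1 rose at week 4, with 81.1, 71.8 and 68.7 FPKM in the normal samples and 176, 227 and 343 FPKM in the PBOO samples. The groups were well apart (log2 fold change 1.70, SE 0.23, limma adjusted p = 0.0483), and normal replicate 1, low in the fibrillar genes, was the highest normal sample here. Col4a2 was listed at 0 in all 6 samples. At week 5 Col4a1 fell, with 83.3, 112 and 91.0 FPKM in the normal samples and 30.9 and 65.2 FPKM in the PBOO samples, although PBOO replicate 2 came close to the normal samples (log2 fold change -1.07, SE 0.33, limma adjusted p = 0.0593). Its call was lost without PBOO replicate 1 (-0.54) and without normal replicate 2 (-0.95). Its partner Col4a2 had 57.9, 76.0 and 73.3 FPKM in the normal samples and 23.2 and 50.7 FPKM in the PBOO samples, a change just under 2-fold (log2 fold change -1.0, SE 0.34, limma adjusted p = 0.0779). It passed without normal replicate 1 (-1.12) or PBOO replicate 2 (-1.56), and after median-ratio scaling (-1.10) or quantile normalization (-1.10). The ratio of Col4a1 to Col4a2 was 1.44, 1.47 and 1.24 in normal and 1.33 and 1.29 in PBOO samples, which overlapped.

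The chains of Col4a5 and Col4a6, which assemble together in the basement membrane of smooth muscle, also fell at week 5. Col4a5 had 16.7, 20.7 and 17 FPKM in the normal samples and 7.49 and 5.57 FPKM in the PBOO samples (log2 fold change -1.47, SE 0.19, limma adjusted p = 0.00399), and Col4a6 6.99, 7.09 and 7.81 FPKM against 1.90 and 1.06 FPKM (log2 fold change -2.28, SE 0.27, limma adjusted p = 0.00307). Both were listed at 0 throughout week 4. Col4a3 and Col4a4, chains known from the kidney filter, were low, and Col4a4 had 0.447, 0.669 and 1.24 FPKM in the normal samples and 0.926, 1.81 and 1.03 FPKM in the PBOO samples at week 4 (log2 fold change 0.66, SE 0.44, limma adjusted p = 0.318) and at most 0.274 FPKM at week 5. Col4a3 did not pass the filter in either week. Against the fibrillar genes, the ratio of Col4a1 to Col1a1 was 0.122, 0.195 and 0.176 in normal and 0.839 and 1.36 in PBOO samples of week 5, without overlap (log2 difference 2.73, SE 0.40, exact permutation test, two-sided, n = 2 and 3, p = 0.2, the smallest possible). At week 4 this ratio was 0.539, 0.156 and 0.123 against 0.217, 0.483 and 0.524 and the groups overlapped, with normal replicate 1 at the top.

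Types XV and XVIII are relatives that carry sugar chains, lie at the basement membrane and release fragments that curb vessel growth (endostatin from type XVIII). They are shown together because they parted at week 5. The 120 bases before each annotated start (RefSeq, GRCr8) follow, with GGGCGG on either strand in capitals.
Col15a1 (chr5:66297426-66297545, + strand): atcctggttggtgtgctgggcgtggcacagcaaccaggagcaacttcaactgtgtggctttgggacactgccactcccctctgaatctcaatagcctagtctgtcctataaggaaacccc
Col18a1 (chr20:11473525-11473644, + strand): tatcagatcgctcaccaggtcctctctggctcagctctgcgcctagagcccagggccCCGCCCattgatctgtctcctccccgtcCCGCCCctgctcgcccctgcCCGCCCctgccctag
The motif stands 3 times before Col18a1 and not in these bases before Col15a1. At week 4, Col15a1 rose, with 4.94, 20.3 and 19.5 FPKM in the normal samples and 28.3, 42.1 and 38.4 FPKM in the PBOO samples (log2 fold change 1.5, SE 0.53, limma adjusted p = 0.115). Without normal replicate 1 its log2 fold change was 0.84 and no longer 2-fold, and without PBOO replicate 2 or 3 it was 1.39 and 1.45 with an unadjusted p over 0.05. Col18a1 was higher in every PBOO sample, with 9.76, 10 and 11.2 FPKM in the normal samples and 18.8, 16.0 and 18.9 FPKM in the PBOO samples, a change below 2-fold (log2 fold change 0.79, SE 0.13, limma adjusted p = 0.0521) that passed after median-ratio scaling (1.04) and quantile normalization (1.0).

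At week 5, Col15a1 fell and Col18a1 rose. Col15a1 had 13.0, 17.7 and 12.8 FPKM in the normal samples and 3.95 and 9.46 FPKM in the PBOO samples (log2 fold change -1.21, SE 0.38, limma adjusted p = 0.0631), and its call was lost without PBOO replicate 1 (-0.59), without normal replicate 2 (-1.06) and in the fit over all 11 samples (-1.21, with an unadjusted p over 0.05). For Col18a1 the values were 9.84, 14.1 and 8.86 FPKM in the normal samples and 14.8 and 37.1 FPKM in the PBOO samples (log2 fold change 1.12, SE 0.42, limma adjusted p = 0.0966). PBOO replicate 1 lay just above the highest normal sample, and without PBOO replicate 2 the log2 fold change was 0.46. The call was also lost without normal replicate 1 (1.06) or 3 (0.99) and without a trend in eBayes (1.12), where the unadjusted p was over 0.05. Within samples, the ratio of Col18a1 to Col15a1 was 0.759, 0.797 and 0.691 in normal and 3.74 and 3.92 in PBOO samples, a log2 difference of 2.36 (SE 0.07, exact permutation test, two-sided, n = 2 and 3, p = 0.2, the smallest possible). At week 4 it was 1.98, 0.493 and 0.575 against 0.665, 0.381 and 0.492, with overlap.

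**Figure D4:**
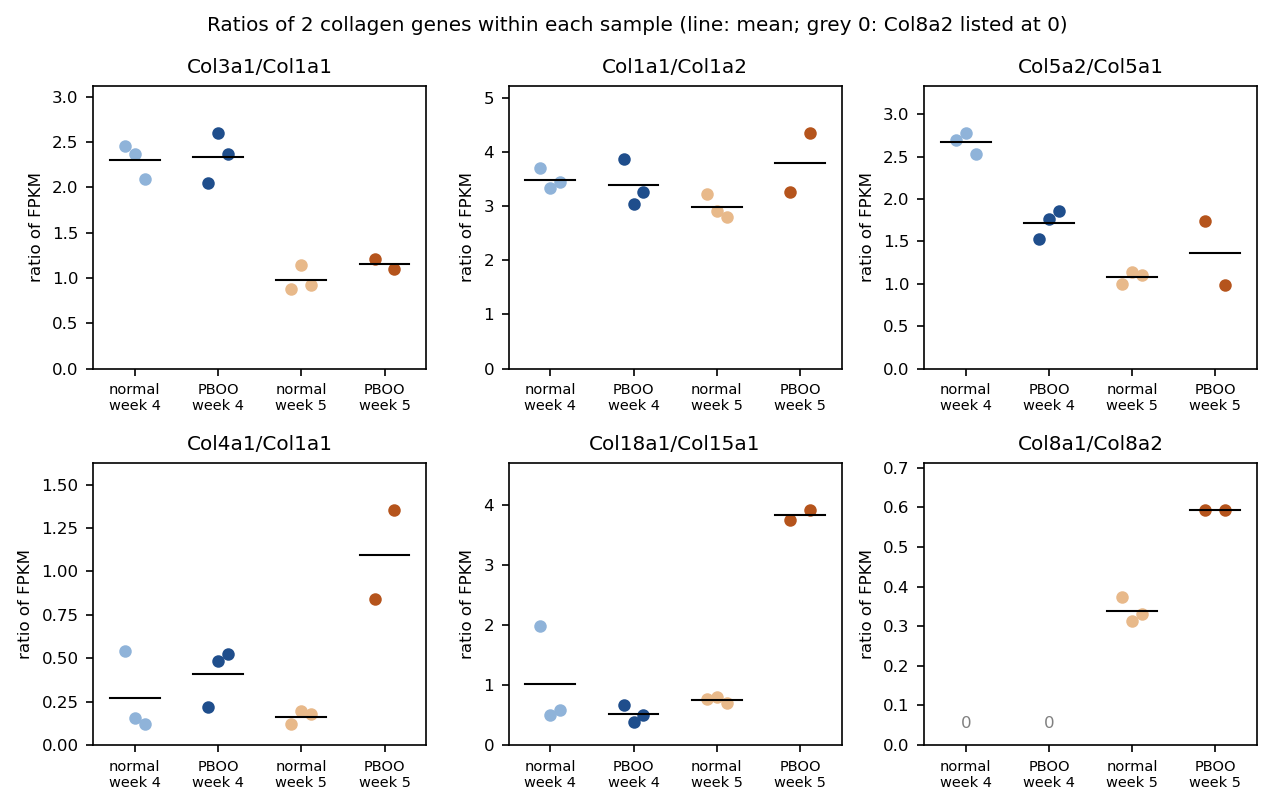
Ratio of the FPKM of 2 collagen genes (y axis, from 0) within each sample (points) and its mean per group (lines). Col18a1/Col15a1 and Col4a1/Col1a1 are higher in both PBOO week 5 samples than in the normal samples of that week, Col5a2/Col5a1 is lower in all 3 PBOO week 4 samples than in the normal ones, and Col3a1/Col1a1 overlaps between PBOO and normal in each week. Col8a1/Col8a2 has no value at week 4, where Col8a2 is listed at 0.

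Type VI collagen links cells to the fibrils around them, and its common form needs the chains of Col6a1, Col6a2 and Col6a3. Of these, Col6a2 alone had values at week 4, 202, 275 and 350.4 FPKM in the normal samples and 419, 277 and 419.6 FPKM in the PBOO samples, which overlapped (log2 fold change 0.44, SE 0.25, limma adjusted p = 0.243). Col6a1 and Col6a3 were listed at 0 in all 6 samples of that week. At week 5 all 3 chains had values and all fell. Col6a1 had 264, 262 and 279 FPKM in the normal samples and 32.3 and 56.2 FPKM in the PBOO samples (log2 fold change -2.65, SE 0.24, limma adjusted p = 0.00144), and Col6a2 198, 221 and 223 FPKM against 26.9 and 48.0 FPKM (log2 fold change -2.57, SE 0.25, limma adjusted p = 0.00188). In Col6a3 the values were 49.6, 64.4 and 50.0 FPKM in the normal samples and 6.20 and 8.61 FPKM in the PBOO samples (log2 fold change -2.88, SE 0.20, limma adjusted p = 0.000613). Both PBOO samples were far below the normal ones in each, with replicate 2 above replicate 1. The ratio of Col6a1 to Col6a2 lay between 1.17 and 1.33 in the 5 samples of week 5 and overlapped between groups, as did that of Col6a3 to Col6a1. Col6a4 was low at week 5, with 0.766, 0.377 and 0.107 FPKM in the normal samples and 0.592 and 0.841 FPKM in the PBOO samples (log2 fold change 0.87, SE 0.70, limma adjusted p = 0.382), and Col6a5 and Col6a6 did not exceed 0.171 FPKM in any sample.

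Type VIII collagen forms open networks and is made by endothelium and by smooth muscle that migrates or remodels. Its genes are shown with the 120 bases before their annotated starts (RefSeq, GRCr8), because Col8a1 rose at week 4 and both chains fell over 10-fold at week 5. GGGCGG on either strand is in capitals.
Col8a1 (chr11:56246662-56246781, + strand): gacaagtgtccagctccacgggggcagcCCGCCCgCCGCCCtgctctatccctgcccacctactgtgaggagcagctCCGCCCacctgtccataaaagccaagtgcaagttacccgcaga
Col8a2 (chr5:143870649-143870768, + strand): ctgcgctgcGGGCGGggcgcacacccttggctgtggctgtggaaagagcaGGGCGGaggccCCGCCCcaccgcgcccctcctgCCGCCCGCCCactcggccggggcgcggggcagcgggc
The motif stands 3 times in the bases of Col8a1 and 5 times, some overlapping, in those of Col8a2. At week 4, Col8a1 had 7.88, 10.3 and 9.78 FPKM in the normal samples and 20.7, 39.1 and 63.4 FPKM in the PBOO samples. Every PBOO sample was above the normal ones, and the PBOO samples were themselves spread (log2 fold change 1.99, SE 0.38, limma adjusted p = 0.0538). Col8a2 was listed at 0 throughout that week. At week 5, Col8a1 was 12-fold lower in PBOO samples, with 5.35, 3.32 and 6.09 FPKM in the normal samples and 0.392 and 0.237 FPKM in the PBOO samples (log2 fold change -3.58, SE 0.36, limma adjusted p = 0.0019). Col8a2 had 14.3, 10.6 and 18.3 FPKM in the normal samples and 0.659 and 0.398 FPKM in the PBOO samples, a 23.0-fold lower level (log2 fold change -4.53, SE 0.31, limma adjusted p = 0.000582). The ratio of Col8a1 to Col8a2 was 0.373, 0.314 and 0.332 in normal and 0.594 and 0.594 in PBOO samples, without overlap (exact permutation test, two-sided, n = 2 and 3, p = 0.2, the smallest possible). Col10a1, the collagen of growth plate cartilage, did not exceed 0.136 FPKM in any sample.

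The fibril-associated collagens sit on the surface of fibrils and tie them to other matrix. Col14a1 had 8.19, 57.9 and 59.5 FPKM in the normal samples and 76.5, 83.0 and 76.7 FPKM in the PBOO samples at week 4. Normal replicate 1 was far below the rest, and the change did not pass (log2 fold change 1.36, SE 0.72, limma adjusted p = 0.223). Without that sample the log2 fold change was 0.42, and without normal replicate 2 or 3 it was 1.83 and 1.84 and passed. Col16a1, which is found in smooth muscle and skin, was higher in every PBOO sample, with 15.3, 22.0 and 25.2 FPKM in the normal samples and 32.4, 31.7 and 40.0 FPKM in the PBOO samples, at less than a 2-fold change (log2 fold change 0.76, SE 0.20, limma adjusted p = 0.0783). It passed after median-ratio scaling (1.01). At week 5 both fell. Col14a1 was 23.3-fold lower, with 7.10, 11 and 4.80 FPKM in the normal samples and 0.337 and 0.126 FPKM in the PBOO samples (log2 fold change -4.54, SE 0.46, limma adjusted p = 0.00199), and Col16a1 had 25.2, 22.8 and 22.4 FPKM in the normal samples and 4.26 and 4.54 FPKM in the PBOO samples (log2 fold change -2.39, SE 0.13, limma adjusted p = 0.00029). Col12a1, the relative of Col14a1 that is common in tissue under load, was listed at 0 at week 4 and fell at week 5, with 12.9, 7.61 and 15.2 FPKM in the normal samples and 0.723 and 2.09 FPKM in the PBOO samples (log2 fold change -3.10, SE 0.50, limma adjusted p = 0.00822). Without PBOO replicate 1 its log2 fold change was -2.39, and without replicate 2 it was -3.81. With a pseudocount of 1, Col14a1 was at -2.75.

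Among the lower genes of the group of others, Col28a1, a collagen known from peripheral nerve sheaths, fell at week 5. It had 5.13, 7.65 and 5.52 FPKM in the normal samples and 0.290 and 0.0345 FPKM in the PBOO samples (log2 fold change -4.74, SE 0.50, limma adjusted p = 0.00223), with the PBOO values close to the pseudocount. Its log2 fold change was -2.60 with a pseudocount of 1, -5.51 without PBOO replicate 1 and -3.97 without PBOO replicate 2. Of the 6 nerve and glia markers, 4 fell and none rose at that week, with a median log2 fold change of -3.25. Their sum was 773 to 828 FPKM in normal and 726 to 1315 FPKM in PBOO samples. Nearly all of it was Uchl1, which did not pass (log2 fold change 0.33, limma adjusted p = 0.396). The part of such cells was not tested. Col9a3 and Col24a1 also fell, at low levels. Col9a3 had 0.695, 1.03 and 0.634 FPKM in the normal samples and 0.141 and 0.194 FPKM in the PBOO samples (log2 fold change -1.71, SE 0.45, limma adjusted p = 0.0374), and the call was lost with a pseudocount of 1 (-0.61). For Col24a1, a gene of the fibrillar class by its helix though outside the fibrillar types counted here, the values were 1.41, 0.603 and 0.737 FPKM in the normal samples and 0.195 and 0.286 FPKM in the PBOO samples (log2 fold change -1.51, SE 0.49, limma adjusted p = 0.069). Its call was lost with a pseudocount of 1 (-0.61), and, with an unadjusted p over 0.05, without PBOO replicate 1 (-1.32) and without normal replicate 3 (-1.61). Col27a1, another member of that class, had 2.66, 2.99 and 2.78 FPKM in the normal samples and 3.36, 5.69 and 2.79 FPKM in the PBOO samples at week 4 (log2 fold change 0.41, SE 0.28, limma adjusted p = 0.325). At week 5 it was lower in both PBOO samples, with 3.57, 3.04 and 4.19 FPKM in the normal samples and 1.15 and 2.92 FPKM in the PBOO samples, and did not pass (log2 fold change -0.92, SE 0.41, limma adjusted p = 0.141). It passed without PBOO replicate 2 (-1.56) and after median-ratio scaling (-1.02). Col20a1 had 2.47, 2.07 and 1.96 FPKM in the normal samples and 2.54 and 1.68 FPKM in the PBOO samples at week 5, which overlapped (log2 fold change -0.06, SE 0.26, limma adjusted p = 0.889).

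Col7a1, Col17a1 and Col13a1 went the other way at week 5. Type VII collagen forms the anchoring fibrils that fasten an epithelium to the tissue below, and type XVII is a membrane protein of the hemidesmosomes of basal epithelial cells. Col7a1 had 6.51, 4.82 and 3.38 FPKM in the normal samples and 26.0 and 49.5 FPKM in the PBOO samples, a 7.44-fold rise (log2 fold change 2.89, SE 0.37, limma adjusted p = 0.00421). At week 4 its values were 2.30, 2.13 and 2.03 FPKM in the normal samples and 3.50, 2.18 and 2.08 FPKM in the PBOO samples and overlapped (log2 fold change 0.22, SE 0.26, limma adjusted p = 0.564). Col17a1, the highest gene of the remaining types, had 53.1, 36.4 and 44.9 FPKM in the normal samples and 87.6 and 68.3 FPKM in the PBOO samples at week 5. Both PBOO samples were above the normal ones, below a 2-fold change (log2 fold change 0.80, SE 0.20, limma adjusted p = 0.034). At week 4 it had 49.8, 36.8 and 28.8 FPKM in the normal samples and 44.4, 17 and 16.3 FPKM in the PBOO samples, with PBOO replicate 1 within the normal range (log2 fold change -0.70, SE 0.40, limma adjusted p = 0.257). Without that sample the log2 fold change was -1.16 and passed. The 10 urothelial markers summed to 6348 to 7762 FPKM in normal and 6928 to 7391 FPKM in PBOO samples of week 5, and Krt5, the keratin of basal urothelial cells, had 182, 124 and 97.4 FPKM in the normal samples and 779.7 and 2859 FPKM in the PBOO samples (log2 fold change 3.52, limma adjusted p = 0.00893). Krt5 was the 1 urothelial marker that rose. Krt20 (log2 fold change -6.47, limma adjusted p = 0.00076), Upk3b (log2 fold change -3.17, limma adjusted p = 0.00621), Upk2 (log2 fold change -2.39, limma adjusted p = 0.000532) and Upk1a (log2 fold change -1.11, limma adjusted p = 0.0566), genes of the surface cells, fell. The uroplakins Upk3a (log2 fold change 0.03, limma adjusted p = 0.901) and Upk1b (log2 fold change -0.76, limma adjusted p = 0.115) did not pass. The part of these cells in the values of Col7a1 and Col17a1 was not tested.

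Type XIII collagen is a membrane protein of cell contacts and of the junction between nerve and muscle. Col13a1 had 0.0822, 0.505 and 0.205 FPKM in the normal samples and 0.826 and 7.46 FPKM in the PBOO samples at week 5 (log2 fold change 3.03, SE 1.0, limma adjusted p = 0.0715). The rise was carried mostly by PBOO replicate 2, and the mean without that sample was under the filter. Without normal replicate 1 or 3, the log2 fold change was 2.62 and 2.99, with an unadjusted p over 0.05. At week 4 it had 0.518, 0.439 and 0.657 FPKM in the normal samples and 0.529, 0.217 and 0.242 FPKM in the PBOO samples and did not pass the filter. The remaining genes of the group of others did not pass it in either week. Col23a1 reached 0.734 FPKM and Col25a1 0.746 FPKM at most, and Col9a1, Col9a2, Col19a1, Col22a1 and Col26a1 at most 0.393 FPKM.

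The levels were also summed over the genes of each group. The fibrillar genes summed to 674, 1815 and 2022 FPKM in normal and 2860.1, 2063 and 2694 FPKM in PBOO samples of week 4. At week 5 they summed to 1597, 1533 and 1285 FPKM and 113 and 139.7 FPKM, 11.6-fold lower in the mean. The basement membrane genes had 96.3, 103 and 101 FPKM against 225, 288 and 402 FPKM at week 4, 3.04-fold higher in the mean, and 188, 248 and 211 FPKM against 82.2 and 169 FPKM at week 5, 1.71-fold lower. Normal replicate 1 of week 4 stood out in the fibrillar sum and not in that of the basement membrane. Type VI summed to 513, 548 and 553 FPKM in normal and 66.0 and 114 FPKM in PBOO samples of week 5, and the network genes to 19.7, 13.9 and 24.5 FPKM and 1.05 and 0.771 FPKM. The other 18 genes at week 5 summed to 119, 99.2 and 105 FPKM and 124 and 138 FPKM. Of these, Col7a1, Col9a2, Col13a1 and Col17a1 were above the normal samples, and the rest were below them or overlapped. At week 4, type VI summed to 202, 276 and 351 FPKM in normal and 419, 277 and 419.7 FPKM in PBOO samples, the network genes to 7.88, 10.3 and 9.78 FPKM and 20.7, 39.1 and 63.4 FPKM, and the others to 79.2, 123 and 119.7 FPKM and 161, 140.2 and 138 FPKM. All 44 genes together took 0.195% to 0.461% of the FPKM of a normal sample and 0.550% to 0.716% of that of a PBOO sample at week 4, without overlap. They took 0.513% to 0.566% of the FPKM of a normal sample and 0.0891% and 0.119% of that of a PBOO sample at week 5. These sums are descriptions and were not tested.

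**Figure D5:**
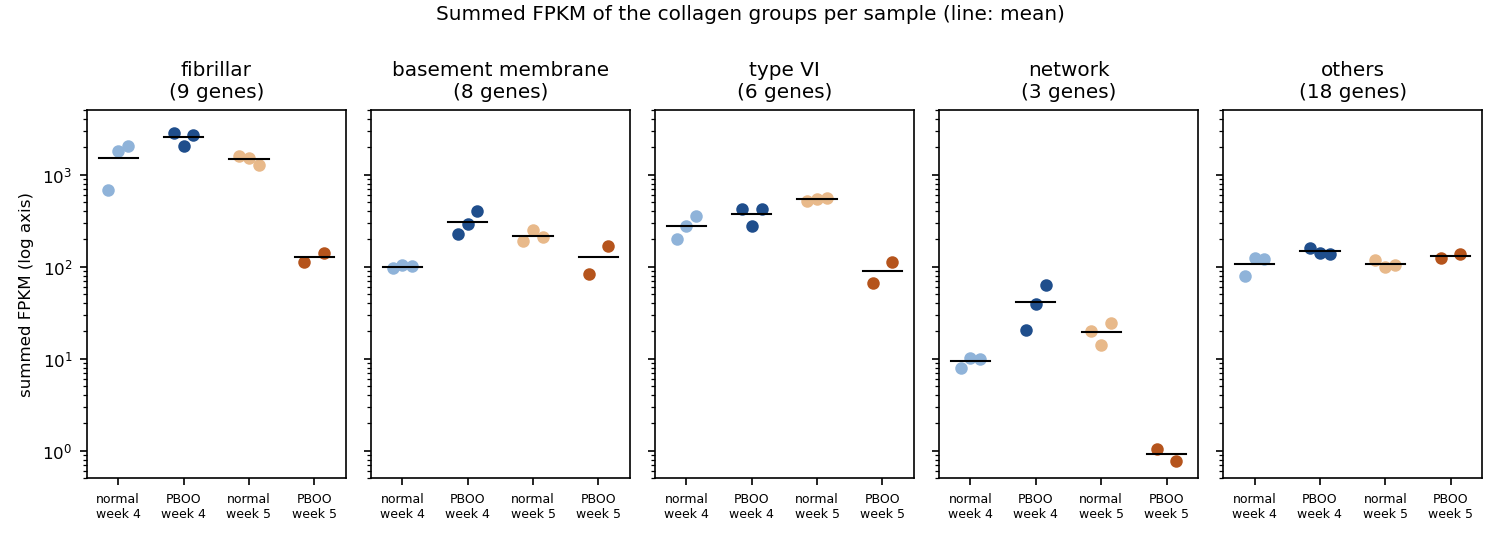
Summed FPKM (y axis, log scale) of the genes of each collagen group in each sample (points), with the mean of the group of samples (lines). Sums of week 4 lack the genes listed at 0 in that week, so weeks are not to be compared. The 2 PBOO week 5 points lie far below the normal ones in the fibrillar, type VI and network panels and near them in the panel of the other genes.

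The genes that act on collagen were read off the same fits, against the shares of all genes given above. Of 17 genes for hydroxylation, folding and glycosylation of the chains, 3 of 16 tested rose at week 4 and none fell, with a median log2 fold change of 0.43. Plod2 and Plod1, which hydroxylate lysines ahead of cross-linking, rose (log2 fold change 1.45, limma adjusted p = 0.0538, and log2 fold change 1.15, limma adjusted p = 0.0629), as did the prolyl hydroxylase gene P4ha3 (log2 fold change 1.31, limma adjusted p = 0.0881). At week 5, 6 of 15 fell and none rose, with a median of -0.72. Serpinh1 (Hsp47), the chaperone of procollagen, had 275, 259 and 276 FPKM in the normal samples and 40.8 and 67.7 FPKM in the PBOO samples (log2 fold change -2.36, limma adjusted p = 0.00171). It was followed by P3h2 and Plod2 (log2 fold change -2.05, limma adjusted p = 0.00124, and log2 fold change -2.04, limma adjusted p = 0.0107). Of 13 genes for procollagen processing and cross-linking, 3 of 11 rose at week 4 (median 0.88), all of the lysyl oxidase family. Lox had 2.95, 5.88 and 5.72 FPKM in the normal samples and 11.9, 14.3 and 47.9 FPKM in the PBOO samples (log2 fold change 2.10, limma adjusted p = 0.0765). Loxl2 (log2 fold change 2.23, limma adjusted p = 0.084) and Loxl1 (log2 fold change 2.07, limma adjusted p = 0.0538) rose as well. At week 5, 6 of 10 fell (median -1.95), led by Adamts2, which trims procollagen (log2 fold change -3.54, limma adjusted p = 0.000289), Loxl1 (log2 fold change -3.24, limma adjusted p = 0.000745) and Loxl2 (log2 fold change -2.94, limma adjusted p = 0.0031).

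Among the proteoglycans and regulators that bind fibrils, 3 of 7 tested rose at week 4 (median log2 fold change 0.96) and all 7 fell at week 5 (median -3.32). Those that rose were Bgn (biglycan, log2 fold change 1.76, limma adjusted p = 0.0538), Fmod (fibromodulin, log2 fold change 1.45, limma adjusted p = 0.0538) and Sparc (log2 fold change 1.25, limma adjusted p = 0.113). The largest falls at week 5 were in Prelp (log2 fold change -4.35, limma adjusted p = 0.000288), Aebp1 (log2 fold change -4.0, limma adjusted p = 0.000178) and Dcn (decorin, log2 fold change -3.52, limma adjusted p = 0.00227). Dcn, a marker of fibroblasts too, had 361, 1719 and 1540.5 FPKM in the normal samples and 1194, 1179.6 and 941 FPKM in the PBOO samples at week 4 and 236, 277 and 209 FPKM in the normal samples and 13.4 and 32.1 FPKM in the PBOO samples at week 5. Normal replicate 1 of week 4 stood apart in Dcn as it did in Col3a1. Of 8 collagen receptor genes, Itga1 (log2 fold change 1.24, limma adjusted p = 0.0478) and Itgb1 (log2 fold change 1.15, limma adjusted p = 0.0664) rose at week 4, and 5 of 6 fell at week 5 (median log2 fold change 0.37 and -2.10), most of all Itga11 (log2 fold change -4.25, limma adjusted p = 0.00543), Ddr2 (log2 fold change -3.02, limma adjusted p = 0.000502) and Itga1 (log2 fold change -2.42, limma adjusted p = 0.0072).

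The genes for enzymes that degrade collagen did not move as one at week 5, when 3 of 7 rose and 2 fell. Mmp13, the main collagenase of rodents, had 0.460, 0.288 and 0.0346 FPKM in the normal samples and 20.1 and 21.7 FPKM in the PBOO samples (log2 fold change 6.09, limma adjusted p = 0.00206). The values of Mmp9, a gelatinase of leukocytes, were 0, 0.0211 and 0 FPKM in the normal samples and 1.83 and 36.7 FPKM in the PBOO samples (log2 fold change 6.30, limma adjusted p = 0.0149), and those of Mmp8, the collagenase of neutrophils, 0.0352, 0 and 0 FPKM in the normal samples and 0.263 and 9.25 FPKM in the PBOO samples (log2 fold change 4.06, limma adjusted p = 0.0771). In the normal samples these genes were at or near 0, so the size of the change depends on the pseudocount, and PBOO replicate 2 was above replicate 1 in all 3. The summed leukocyte markers were higher in both PBOO samples, and the part of leukocytes was not tested. Of the markers tested, Csf1r alone did not pass and overlapped between the groups (log2 fold change 0.84, limma adjusted p = 0.264). Cd68 (log2 fold change 3.22, limma adjusted p = 0.00444) and Cd14 (log2 fold change 2.97, limma adjusted p = 0.00384) were among those that rose. Mmp2 (log2 fold change -2.44, limma adjusted p = 0.0132) and Ctsk (log2 fold change -1.59, limma adjusted p = 0.0283), both made by stromal cells, fell, and the median of the 7 was 0.89. At week 4, 1 of 5 rose, Fap, a protease of activated fibroblasts (log2 fold change 1.59, limma adjusted p = 0.0934).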

How the data were processed

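Bladder tissues of 11 samples were measured by RNA-seq. The deposited values are FPKM per gene and sample, which by the study's methods the authors made with featureCounts after alignment with HISAT2 and assembly with StringTie. The submitters' processing notes also name bcl2fastq 2.0, DESeq2, limma and mm10, a mouse build, for these rat samples, and the study's methods name no build. No counts were analysed here, so no interval for counting error can be given, and how whole genes came to be listed at 0 at week 4 is not given in the sources used here.

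FPKM were taken as deposited. Within each week, genes averaging 0.5 FPKM or more were fitted on log2(FPKM + 0.1) with limma 3.58.1 (lmFit, eBayes with trend) in R 4.3.3, PBOO minus normal, and adjusted by Benjamini-Hochberg over all genes tested. A gene was called at a 2-fold change with an unadjusted p under 0.05. An interaction term over the 11 samples compared the weeks for genes above 0 in both. Ratios of chains were compared by exact permutation (scipy 1.17.1). Per-sample values are given for genes called in either week and for the highest gene of each group, and others are given where they share a chain family. The collagen genes, lists, tests and alternatives were chosen with earlier results of these data known. Alternatives were the pseudocount, filter, scaling, trend, block, samples of the fit and leaving out each sample. The fit was tested on simulated data. No samples of a group held identical values. Sequences are from RefSeq (GRCr8), for 35 of 44 genes.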

Additional observations from a re-analysis of the deposited data

Results flagged for a closer look

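In 16 collagen genes the PBOO difference of week 5 departed from that of week 4 by the limma interaction term at an adjusted p under 0.05. The values are week 5 minus week 4 differences on the log2(FPKM + 0.1) scale. Those below 0 were Col14a1 -5.91, Col8a1 -5.57, Col1a2 -5.08, Col1a1 -4.70, Col3a1 -4.48, Col5a1 -4.44, Col5a2 -3.53, Col16a1 -3.15, Col6a2 -3.01, Col4a1 -2.77, Col15a1 -2.72, Col11a1 -2.52 and Col5a3 -1.36. Those above 0 were Col7a1 2.68, Col13a1 3.66 and Col17a1 1.5. Adjusted p ranged from 2.03e-05 (Col16a1) to 0.0462 (Col17a1).

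For Col17a1 the call was lost on leaving out any of 9 of the 11 samples, the exceptions being normal replicate 3 and PBOO replicate 1 of week 4 (adjusted p up to 0.124), and after median-ratio scaling (adjusted p = 0.097). Col5a3 lost it without any of 5 samples (adjusted p up to 0.0993), Col13a1 without PBOO replicate 2 of week 4 (0.0514) or normal replicate 1 of week 5 (0.0535), Col15a1 without PBOO replicate 1 of week 5 (0.065) and Col11a1 with a pseudocount of 1 (0.0528). In Col11a1, both PBOO samples of week 5 were listed at 0, so that its difference depends on the pseudocount.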

How the results depend on the processing

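The counts of collagen genes called kept their main direction under all alternatives run. They are given without the share of all genes under the same alternative, and the shares given above are those of the main fit. At week 4 the count of 4 became 7 after median-ratio scaling and 7 after quantile normalization, and 3 to 8 on leaving out 1 sample, with 8 without normal replicate 3. The adjusted p of Col4a1 and Col5a1 was no longer under 0.05 with median-ratio scaling, without a trend, without a filter or on leaving out any 1 of 5 of the 6 samples, PBOO replicate 1 excepted (up to 0.214), and that of Col4a1 was 0.0512 with the replicate block. At week 5 the count of 24 became 14 in the fit over all 11 samples, which tests 18 collagen genes because the others are listed at 0 or low at week 4, and 20 to 24 on leaving out 1 sample. The count of 16 genes that differed between weeks ranged from 13 to 16. Leaving out 1 sample of week 5, log2 differences of chain ratios ranged from 0.14 to 0.55 for Col1a1/Col1a2, from 0.13 to 1.09 for Col5a1/Col1a1, from -0.14 to 0.69 for Col5a2/Col5a1 and from -2.23 to -0.42 for Col14a1/Col1a1, the ends being without 1 or the other PBOO sample in each. Whether replicate numbers pair the samples was not settled. Correlations of same-numbered deviations were 0.15, -0.02 and 0.23 at week 4, and those of different numbers -0.21 to 0.09. Not every sample of that week was closest to its own number. At week 5 the deviations of the 2 PBOO samples from their mean mirror each other, so the values there (-0.00 and 0.12) cannot decide. With the replicate block, 4 genes were called at week 4, 21 at week 5 (Col9a3, Col18a1 and Col24a1 lost) and 16 between weeks. Depth is unknown, so the precision of low values cannot be given.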
